A study of Mus musculus with 4 samples.

Results

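The Dlk1-Dio3 imprinted locus of mouse chromosome 12 was described through 6 genes, Dlk1, Meg3, Rtl1, Rian, Mirg and Dio3, out of 54532 genes in the deposited table. They were chosen by name as the listed genes of this cluster, with the difference of Dio3 between the R and the vehicle libraries already known, so all R against vehicle values of the 6 genes are descriptions without a test. The question put to the data was whether Dio3 stood higher in R by itself or together with its neighbours.

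Imprinted genes are read from the chromosome of only the mother or only the father. In this cluster the protein-coding genes Dlk1, Rtl1 and Dio3 are expressed mainly from the paternal chromosome. The non-coding RNAs Meg3, Rian and Mirg, with the microRNAs and small nucleolar RNAs that lie in them, come from the maternal chromosome. Dlk1, also called Pref-1, is a transmembrane relative of the Notch ligands that marks preadipocytes and holds back their conversion to fat cells, and Dio3 is the deiodinase that inactivates thyroid hormone.

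Total RNA was sequenced from cells labelled MSCs of CB6F1 mice, an F1 hybrid strain, isolated by digesting bone marrow and grown in culture. The 2 R libraries came from cells given R, an agent the labels name only by this letter, at 0.5 µM (the labels write "um"), and the 2 vehicle libraries from cells that received DMSO. The titles of all 4 samples carry the term aGVHD, and no label says that replicates are separate animals or cultures. The p-values then cover only the spread between these libraries, which may be technical. Values are FPKM, reads scaled to gene length and library size, and the reads recovered from them numbered 18085183 and 16534440 in R, against 16913625 and 17113441 in vehicle (replicates 1 and 2 of each).

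The cultures were not made up of stromal cells alone. All 15 macrophage and monocyte markers were above 0 in each library, with a summed level of 16120 and 12410 FPKM in R, against 23600 and 21130 FPKM in vehicle. The 15 mesenchymal stromal markers summed to 2192 and 2287 FPKM in R and to 1771 and 1766 FPKM in vehicle, although the stromal receptor Lepr and the surface antigen Thy1 lay below 1 FPKM in each library. The macrophage and stromal sums are weighted to abundant genes, of which Lyz2 and Cxcl12 were chosen after their values were seen. Lyz2 had 8890 and 7060 FPKM in R and 14600 and 12500 FPKM in vehicle. Col1a1 had 852 and 795 FPKM in R and 532 and 526 FPKM in vehicle, and Cxcl12 462 and 514 against 517 and 493 FPKM. Of 13 tested stromal markers 9 had log2 fold changes above 0 and 4 below. All 15 macrophage and monocyte markers were below 0. The 7 endothelial markers summed to 4.594 and 6.564 FPKM in R and to 5.698 and 5.646 FPKM in vehicle. In bulk RNA more cells of a type and more RNA per cell cannot be told apart, and the part of these shifts in the values below was not tested.

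In GENCODE M21 (GRCm38) the stretch from Dlk1 to Dio3 covers chr12:109452823-110281097, 828 kb. Dlk1 lies at its start and Dio3 at its end, and Meg3, Rtl1, Rian and Mirg start 738.1, 689.9, 675.1 and 549.3 kb before Dio3. Between the end of Mirg and Dio3 lie 530 kb. Rtl1 is on the minus strand and the other 5 genes are on the plus strand. Dio3os is a non-coding RNA transcribed away from Dio3 on the minus strand, with 895 bases between its annotated start and that of Dio3.

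The start regions of Dio3, Dio3os and Meg3 are shown because Dio3 and Dio3os are the best covered protein-coding and non-coding genes at the distal end, and Meg3 begins the maternally expressed series. Sequences are from RefSeq on GRCm38.p6, 5′ to 3′ along the gene's strand. For Dio3 they are the 88 bases just before the gene in GENCODE, chr12:110278980-110279067, with its 2 GC boxes (GGGCGG or its reverse complement) in capitals, and 30 bases at chr12:110279187-110279216 with the TATA box (TATAAA) in capitals. For Dio3os they are chr12:110278019-110278318 on the minus strand with GC boxes in capitals. For Meg3 they are chr12:109540746-109541045 with the CCAAT box (CCAAT), the cAMP response element (TGACGTCA) and the TATA box in capitals.
Dio3, before the gene: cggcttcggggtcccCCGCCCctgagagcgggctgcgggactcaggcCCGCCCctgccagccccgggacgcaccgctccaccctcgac
Dio3, TATA box: tcaagctttgacTATAAAttgagctcccag
Dio3os: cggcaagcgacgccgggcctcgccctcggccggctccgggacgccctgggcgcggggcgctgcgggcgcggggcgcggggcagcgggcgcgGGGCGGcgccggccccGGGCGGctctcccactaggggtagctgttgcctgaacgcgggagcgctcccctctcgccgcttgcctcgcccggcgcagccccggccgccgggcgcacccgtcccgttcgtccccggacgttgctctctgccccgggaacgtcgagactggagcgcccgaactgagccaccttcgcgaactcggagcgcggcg
Meg3: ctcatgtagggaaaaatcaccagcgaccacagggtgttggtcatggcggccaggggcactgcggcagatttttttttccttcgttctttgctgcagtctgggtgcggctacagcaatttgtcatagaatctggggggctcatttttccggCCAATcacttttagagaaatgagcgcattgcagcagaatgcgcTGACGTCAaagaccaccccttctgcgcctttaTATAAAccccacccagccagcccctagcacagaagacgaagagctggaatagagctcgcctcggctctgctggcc

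The 3 regions differ in base composition. Windows of 300 bases around RefSeq start sites, 250 before and 50 after, held 53 CpG for Dio3os, 25 for Dio3 and 13 for the first start of Meg3, against a median of 7 over 32851 windows. The windows of Dlk1, Mirg and Rian held 9, 10 and 0 CpG. The window of Dio3 contained 4 GC boxes, 2 CCAAT boxes and a TATA box 31 bases before the RefSeq start, and that of Meg3 a cAMP response element 57 bases before its start. Searched on both strands, the GC box was present in 35.7%, the CCAAT box in 37.4%, the TATA box in 13.6% and the cAMP response element in 1.79% of all windows. The letters of a STAT site (TTCNNNGAA, present in 8.3% of windows) were found in the window of Rian and not in those of the other genes. The letters of an interferon response element, present in 3.44% of windows, were found in none of the windows of Dlk1, Meg3, Rian, Mirg, Dio3 and Dio3os.

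Dio3 (ENSMUSG00000075707) was the only member whose mean reached 1 FPKM, the filter for testing. It is a gene of 1 exon, 2030 bases long, whose selenoprotein removes an iodine from the inner ring of thyroid hormone. Its level was 18.4 and 14.1 FPKM in R, against 7.18 and 5.6 FPKM in vehicle. Both R libraries lay above both vehicle libraries. The means were 16.3 ± 3.0 FPKM in R, against 6.39 ± 1.11 FPKM in vehicle (SD, n = 2 each), a ratio of 2.54, and the 4 ratios of an R over a vehicle library ran from 1.97 to 3.28.

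In reads, Dio3 had 720 and 519 in R and 257 and 204 in vehicle, at least 204 in every library. The log2 fold change on the log2(FPKM + 1) scale was 1.22 (SE 0.178), at rank 37 from the top among the 12176 genes tested. Across all of them the test called 0.345% higher in R, and no test is given for Dio3 because it was chosen on this contrast. By mean level Dio3 stood at rank 4536 of these genes. Under 13 other ways of processing its log2 fold change ran from 1.03 to 1.43. The lowest value was found when each library was scaled to the tested stromal markers, a scale chosen after the data were seen.

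Dio3os, the RNA that runs away from Dio3 and is not a member, was the nearest measured neighbour. It had 3.11 and 1.68 FPKM in R and 1.15 and 1.09 FPKM in vehicle, or 101 and 51 reads in R and 34 and 33 reads in vehicle. R replicate 1 stood well above the other 3 libraries. Its log2 fold change of 0.65 (SE 0.228) missed the threshold (limma, Benjamini-Hochberg adjusted p = 0.252), and over 12 alternatives without a replicate block limma's adjusted p ran from 0.0388 to 0.492. The call was made in 1 of the 12, without R replicate 2, at a log2 fold change of 0.96. Dio3 exceeded Dio3os per length by 5.91 and 8.44 times in the R libraries and by 6.27 and 5.13 times in the vehicle libraries, and these ranges overlap.

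**Figure D1:**
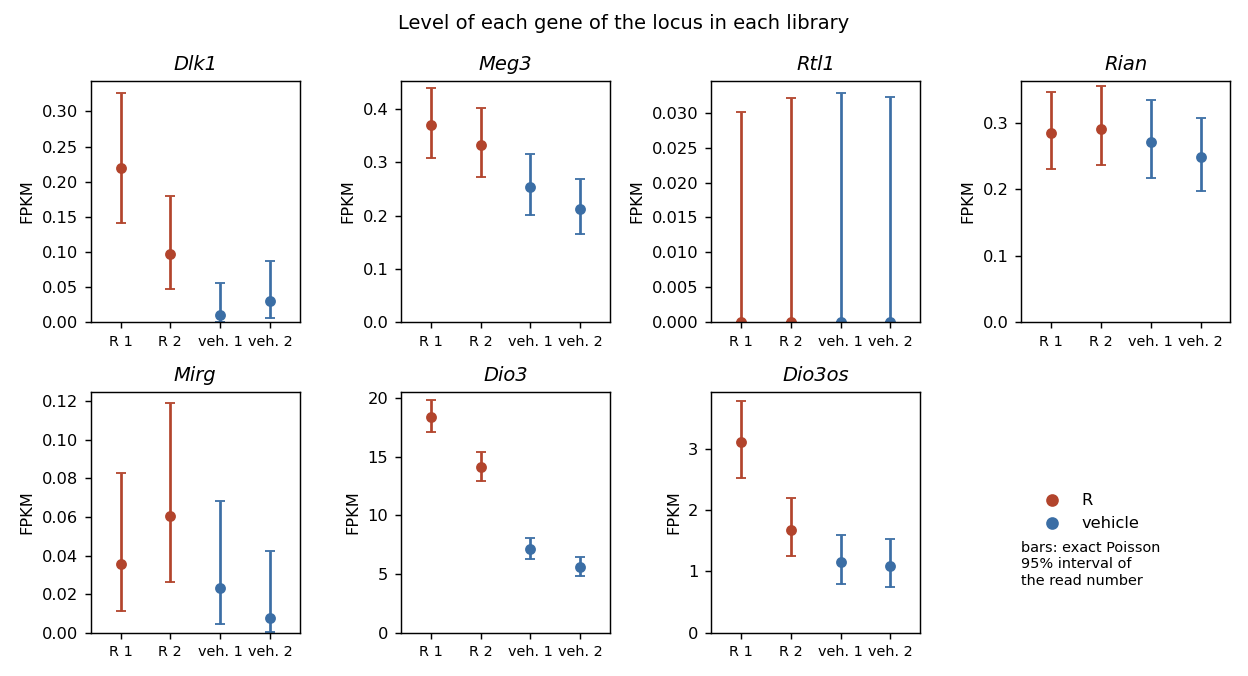
FPKM of the 6 members and of Dio3os in R replicates 1 and 2 and vehicle replicates 1 and 2, with exact Poisson 95% intervals of the read numbers as bars; each panel has its own axis from 0. Dio3 reached 18.4 and 14.1 FPKM in R against 7.18 and 5.6 FPKM in vehicle, while Dlk1, Meg3, Rian and Mirg stayed below 0.4 FPKM and Rtl1 was listed at 0.

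The other paternally expressed genes were nearly silent. Dlk1 (ENSMUSG00000040856) had 0.22 and 0.0977 FPKM in R and 0.01 and 0.0296 FPKM in vehicle. These are 24 and 10 reads in the R libraries and 1 and 3 reads in the vehicle libraries. Both R libraries were above both vehicle libraries, at read numbers too low to give a level with any precision. The exact Poisson 95% interval was 0.0469 to 0.18 FPKM in R replicate 2 and 0.0061 to 0.0864 FPKM in vehicle replicate 2. The summed reads gave a ratio of 8.09 between R and vehicle with an exact 95% interval of 2.88 to 31.4, which covers counting error only, as do all intervals given here.

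Rtl1 (ENSMUSG00000085925), a gene derived from a retrotransposon that is needed in the fetal capillaries of the placenta, had 0 reads in each of the 4 libraries. With 3 reads as the limit that a count of 0 allows, its level was at most 0.0244 and 0.0261 FPKM in R replicates 1 and 2 and 0.0268 and 0.0263 FPKM in vehicle replicates 1 and 2. No difference in Rtl1 was detectable at this depth.

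The maternally expressed RNAs lay below 0.4 FPKM in each library. Meg3 (ENSMUSG00000021268), a long non-coding RNA also known as Gtl2, had 0.37 and 0.333 FPKM in R and 0.254 and 0.213 FPKM in vehicle, from 129 and 109 reads in R and 81 and 69 reads in vehicle. The groups did not overlap, with means of 0.351 ± 0.0258 FPKM in R, against 0.233 ± 0.0292 FPKM in vehicle (SD, n = 2 each) and a read ratio of 1.51 (exact 95% interval 1.23 to 1.86). Rian (ENSMUSG00000097451), the host of a series of C/D box small nucleolar RNAs, had 0.284 and 0.291 FPKM in R and 0.271 and 0.248 FPKM in vehicle. Its read ratio was 1.11, with an exact 95% interval of 0.899 to 1.37 for counting error alone.

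Mirg (ENSMUSG00000097391), the host of the most distal microRNAs of the cluster, had 0.0355 and 0.0606 FPKM in R and 0.0233 and 0.00764 FPKM in vehicle. With 5 and 8 reads in R and 3 and 1 reads in vehicle, its read ratio of 3.09 had an exact 95% interval of 0.955 to 13.0. The exon lengths behind the values of Meg3 and Rian, 18089 and 18234 bases, join all annotated isoforms. Their FPKM is thus divided by more sequence than a single spliced form may hold.

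In order of level, Dio3 stood first in each library, by 49.7 and 42.4 times over Meg3 in the R libraries and by 28.3 and 26.3 times in the vehicle libraries. Meg3 and Rian followed, above Mirg and Dlk1 in each library. Dlk1 was above Mirg in 3 of 4 libraries and below it in vehicle replicate 1, and their counting intervals overlapped in all but R replicate 1. Meg3 exceeded Rian by 1.3 and 1.14 times in R and was at 0.938 and 0.859 of its level in vehicle, so these neighbours changed places, each time with overlapping counting intervals. Rtl1 was last at 0.

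Of the 6 members, 5 were higher in both R libraries than in both vehicle libraries, where this held for 18.3% of the 24958 genes above 0 in at least 1 library. This is the contrast in which the locus was chosen, and nothing is read from the count. After scaling to the stromal markers it was 4, since Rian then had a log2 fold change of -0.01 where the deposited scale gave 0.03.

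Shares of reads within the locus do not depend on how libraries are scaled to each other. Dio3 held 73.6 and 69.9% of the reads of the 6 members in the R libraries and 59.9 and 57.0% in the vehicle libraries. The Wilson 95% intervals of these shares, for counting error alone, were 70.8 to 76.3% and 66.6 to 73.1% in R and 55.2 to 64.4% and 51.8 to 62.0% in vehicle. Rian held 10.2 and 12.9% in R and 20.3 and 22.6% in vehicle, and Meg3 13.2 and 14.7% in R and 18.9 and 19.3% in vehicle. The share of Dio3 was higher in both R libraries than in both vehicle libraries and the shares of Rian and Meg3 were lower, as a description of the reads on which the locus was chosen.

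**Figure D2:**
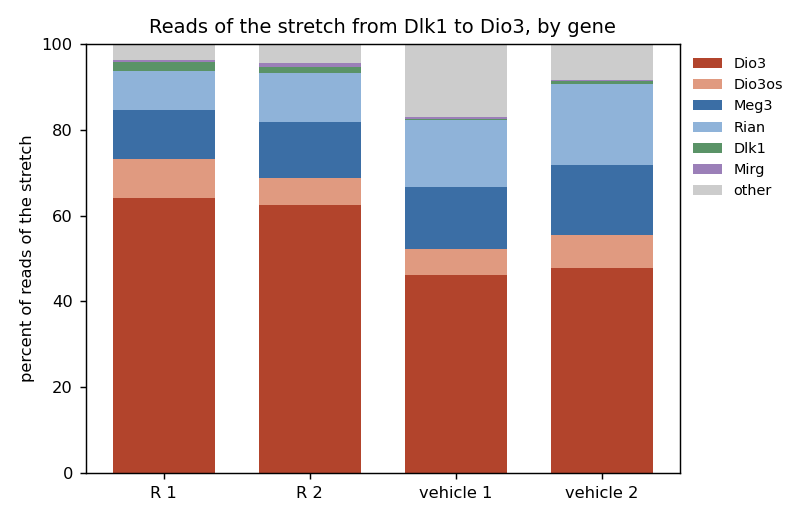
Percent of the reads of all annotated genes from Dlk1 to Dio3 that fell on each gene, in R replicates 1 and 2 and vehicle replicates 1 and 2; other genes of the stretch are grey. Dio3 took 64.2 and 62.5% in the R libraries and 46.1 and 47.8% in the vehicle libraries.

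Besides the members, the stretch holds 112 annotated genes, of which 102 were listed at 0 in every library. All 67 microRNA genes and all 23 small nucleolar RNA genes of the stretch were among them. Whether the libraries and the counting could register such small RNAs was not tested, so these values of 0 do not show absence. Of the 10 genes above 0, Dio3os and Gm3379 had a mean of at least 1 FPKM, and the other 8 had at most 7 reads in any library. Gm3379, a processed pseudogene whose reads may belong to its parent gene, had 2.5 and 2.41 FPKM in R and 7.51 and 3.04 FPKM in vehicle. Vehicle replicate 1 stood apart there, and its log2 fold change was -0.76 (limma, adjusted p = 0.349).

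The flanks gave no called gene. Of 58 annotated genes within 1 Mb on either side of the stretch, 20 were tested, and limma called 0 of them at a Benjamini-Hochberg adjusted p under 0.05, where 1.72% of all tested genes were called. An unadjusted p under 0.05 was found for 3 of the 20, against 16% of all tested genes, and limma's voom on recovered reads also called 0. Their median log2 fold change was -0.04, against 0 for all tested genes, with 9 above and 11 below 0. Dync1h1, the heavy chain of cytoplasmic dynein, chosen after its values were seen, had 31 and 34.8 FPKM in R and 29.9 and 37.5 FPKM in vehicle.

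The flanking genes with the smallest p were Eml1, a microtubule-binding protein gene 1908.1 kb before Dio3, and Gm6988, a processed pseudogene. Eml1 had 5.29 and 6.89 FPKM in R and 3.45 and 3.3 FPKM in vehicle, a log2 fold change of 0.69 (limma, adjusted p = 0.103), which was called without R replicate 1 (limma, adjusted p = 0.0276, over a range of 0.0276 to 0.306). Gm6988 had a log2 fold change of -0.71 (limma, adjusted p = 0.136) from no more than 11 reads in any library. Begain, the next protein-coding gene before Dlk1 and chosen after its values were seen, was below the filter at 0.388 and 0.314 FPKM in R and 0.0772 and 0.0885 FPKM in vehicle. Its 58 reads in R and 13 reads in vehicle gave a ratio of 4.25 with an exact 95% interval of 2.3 to 8.45. Both R libraries lay above both vehicle libraries, as for 18.3% of genes above 0 in at least 1 library.

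**Figure D3:**
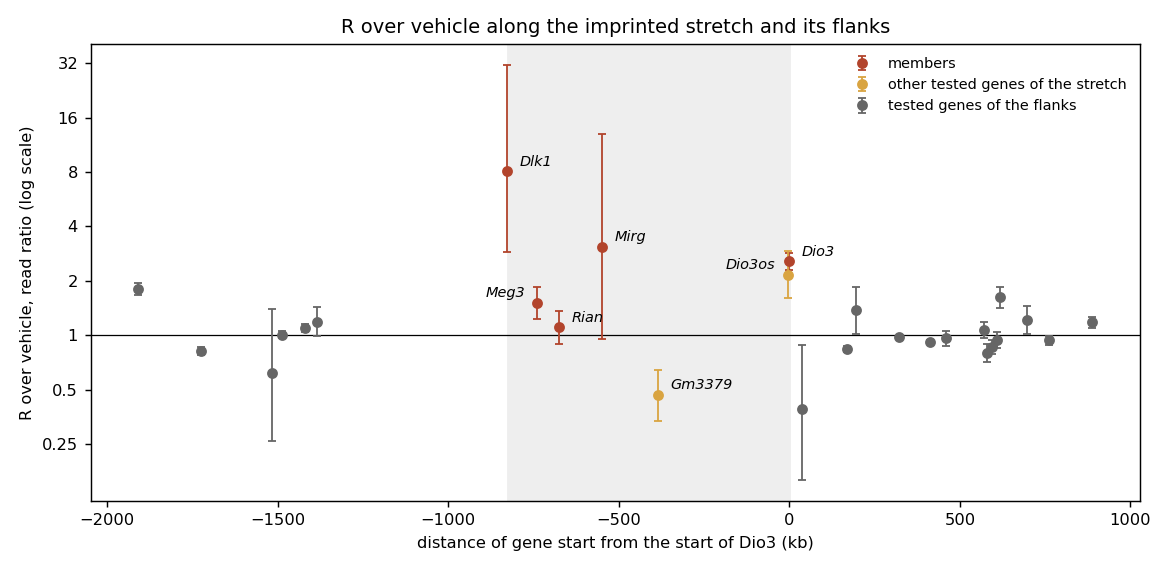
Ratio of summed reads in R over vehicle, scaled to library size, on a log axis against the distance of each gene's start from that of Dio3 in kb; bars are exact 95% counting intervals and the grey band is the stretch from Dlk1 to Dio3. Dio3 at 2.56 and Dio3os at 2.16 lie side by side, Meg3 and Rian are at 1.51 and 1.11, and the intervals of Dlk1 and Mirg are wide. Drawn are members with reads and the tested genes of the stretch and flanks. Rtl1 and genes under the filter, such as Begain at 4.25, are thus absent.

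Genes that handle thyroid hormone were looked at because Dio3 acts on it. Of 22 listed genes 13 were tested, and limma called 0, against 1.72% of all tested genes. An unadjusted p under 0.05 in limma was found for 5, against 16% of all tested genes. Both shares apply to the lists below as well. Voom called 2 of the 11 listed genes it could test, against 2.75% of all genes it tested. Their median log2 fold change was 0.17, against 0 for all tested genes. Slc7a5, a transporter of large amino acids that also carries thyroid hormone, had 15.7 and 18.1 FPKM in R and 9.63 and 8.13 FPKM in vehicle. Its log2 fold change of 0.86 (SE 0.141) just missed the threshold (limma, Benjamini-Hochberg adjusted p = 0.0516), but was past it in voom and without R replicate 1, R replicate 2 or vehicle replicate 1. Its adjusted p ran from 0.0263 to 0.197 over 12 alternatives in limma or voom that had no block.

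The other deiodinases and the receptors were picked after their values were seen. The deiodinases were hardly present, with Dio1 listed at 0 in each library and Dio2, which activates thyroid hormone, at 0.116 and 0.0856 FPKM in R and 0.195 and 0.22 FPKM in vehicle. Of the receptors, Thra had 21.8 and 20.2 FPKM in R and 15.3 and 15.2 FPKM in vehicle (limma, adjusted p = 0.154), and Thrb lay between 0.42 and 0.53 FPKM in all libraries.

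Dio3 carries selenocysteine, an amino acid inserted by its own set of factors. Of the 8 tested genes for that machinery limma called 0, with 1 at an unadjusted p under 0.05, and voom called 0. Sephs2, which makes the selenium donor and is itself a selenoprotein, had 19.3 and 17.5 FPKM in R and 27.3 and 26.2 FPKM in vehicle (limma, adjusted p = 0.119). Secisbp2, which binds the selenocysteine insertion element, had a log2 fold change of -0.18 (limma, adjusted p = 0.627). Of 19 tested selenoproteins other than Dio3 limma called 0, and voom called 0, with a median log2 fold change of -0.08. An unadjusted p under 0.05 in limma was found for 3, against 16% of all tested genes. Gpx3, the secreted glutathione peroxidase, had 387 and 311 FPKM in R and 552 and 535 FPKM in vehicle (limma, adjusted p = 0.174).

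Dlk1 belongs to the Notch ligand family, and 11 of 22 listed Notch pathway genes were tested. Limma called 0, with 3 at an unadjusted p under 0.05, against 16% of all tested genes. Voom called 0, and the median log2 fold change of the list was 0.1. Among all tested genes, both R libraries lay above both vehicle libraries in 22.7%. Hes1, a repressor induced by Notch, had 17.6 and 15.8 FPKM in R and 10.3 and 10.9 FPKM in vehicle, with groups apart (log2 fold change 0.6, SE 0.123; limma, Benjamini-Hochberg adjusted p = 0.0877), and limma called it without R replicate 1 (adjusted p = 0.0455) and without R replicate 2 (adjusted p = 0.0314), its adjusted p reaching 0.703 elsewhere. The ligand Jag1 had 9.65 and 14.9 FPKM in R and 6.38 and 6.95 FPKM in vehicle (limma, adjusted p = 0.156). Dlk2, the closest relative of Dlk1, also chosen after its values were seen, had 2.84 and 1.65 FPKM in R and 1.15 and 1.16 FPKM in vehicle, and was thus more abundant per length than Dlk1 in each library.

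Imprinted genes of other loci showed levels from 0 to 41.6 FPKM. Of 43 listed genes 24 were tested, with 5 at an unadjusted p under 0.05 in limma, against 16% of all tested genes. Limma called 0 of the 24 listed genes, and voom called 0. Their log2 fold changes ran from -0.2 to 0.76, with a median of 0.11 and 17 of 24 above 0, where 50% of all tested genes were. Mest, a paternally expressed hydrolase-like gene of mesoderm, had 2.84 and 3.71 FPKM in R and 1.34 and 1.7 FPKM in vehicle (limma, Benjamini-Hochberg adjusted p = 0.103). Gnas, which encodes the stimulatory G protein alpha subunit, had 5.82 and 6.71 FPKM in R and 2.69 and 3.97 FPKM in vehicle (limma, adjusted p = 0.119). Both had R libraries above both vehicle libraries, as did 22.7% of all tested genes. Limma called Mest without R replicate 1 (adjusted p = 0.0433, up to 0.364 elsewhere) and Gnas without vehicle replicate 2 (adjusted p = 0.0165, up to 0.669 elsewhere).

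H19, a maternally expressed non-coding RNA of another cluster, had 28.2 and 24.3 FPKM in R and 27.4 and 24.2 FPKM in vehicle, with overlapping groups and a log2 fold change of 0.03 (SE 0.139). It was thus far above Meg3 per length in the same libraries, with the level of Meg3 divided by the joined length of all its isoforms. Igf2, the paternally expressed neighbour of H19, had 0.254 and 0.261 FPKM in R and 0.0396 and 0.127 FPKM in vehicle and was not tested. H19 and Igf2 were chosen after their values were seen.

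Factors that keep imprints gave no call. Of 21 listed genes 16 were tested, limma called 0, with 1 at an unadjusted p under 0.05, and voom called 0, and the median log2 fold change was 0.02. Uhrf1, which guides the maintenance methyltransferase to newly copied DNA, had 10.2 and 11.9 FPKM in R and 8.32 and 8.24 FPKM in vehicle (limma, adjusted p = 0.245). Dnmt1, that methyltransferase, had 18 and 19.4 FPKM in R and 14.7 and 17.3 FPKM in vehicle (limma, adjusted p = 0.5).

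Relatives of Rtl1 were expressed although Rtl1 was listed at 0. Of 11 listed genes of this retrotransposon-derived family 7 were tested, and limma called 0, with 0 at an unadjusted p under 0.05, and voom called 0, with a median log2 fold change of 0.04. Peg10 had 2.92 and 3.86 FPKM in R and 2.18 and 2.51 FPKM in vehicle (limma, adjusted p = 0.324), and Rtl8b had 29.7 and 17.4 FPKM in R and 35.9 and 28.9 FPKM in vehicle (limma, adjusted p = 0.438). Rtl8b belongs to a group of near-identical copies, so its value is uncertain. Of 13 genes that process microRNAs and small nucleolar RNAs, all tested, limma called 0, with 0 at an unadjusted p under 0.05, and voom called 0, with a median of 0.05. Tarbp2, a partner of Dicer, had a log2 fold change of 0.25 (limma, adjusted p = 0.58), and Snu13, a protein of the C/D box particle, one of -0.15 (limma, adjusted p = 0.624).

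**Figure D4:**
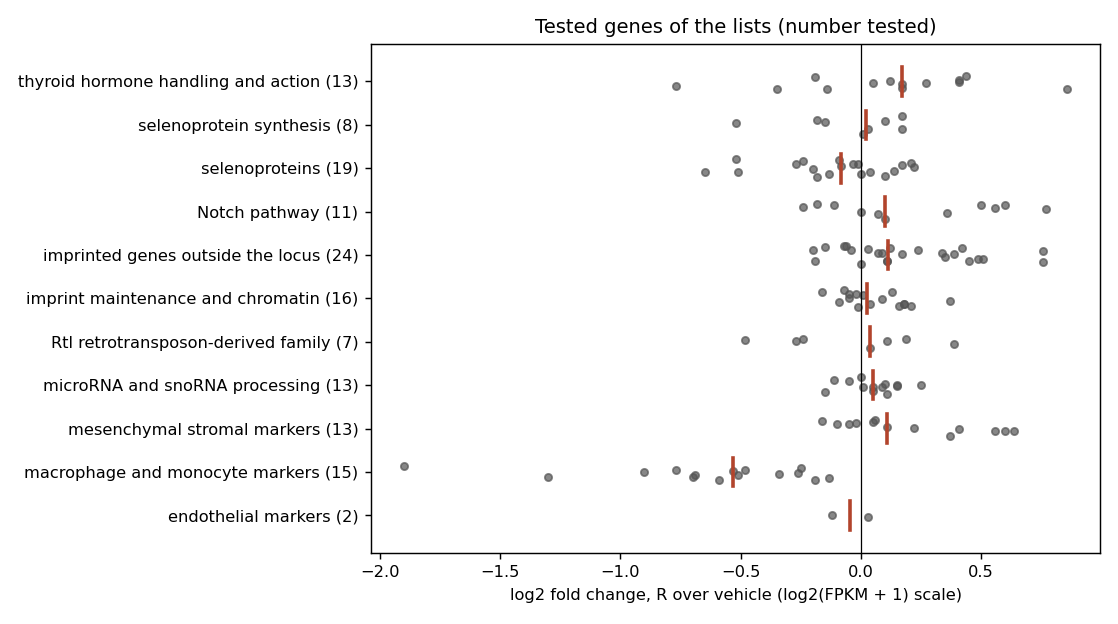
Log2 fold changes (R over vehicle, log2(FPKM + 1) scale) of the tested genes of each list, with the number tested; points are genes and red bars medians. The thyroid hormone, Notch and imprinted gene lists had medians of 0.17, 0.1 and 0.11, and the macrophage and monocyte markers a median of -0.53.

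The genes most like Dio3 in pattern were G0s2, Cox11 and Adra1d. Likeness was the root mean square distance between log2(FPKM + 1) values centred on each gene's mean over the 4 libraries, and was 0.082, 0.11 and 0.12. G0s2, an inhibitor of fat breakdown in lipid droplets, had 17.9 and 13.1 FPKM in R and 6.25 and 5.82 FPKM in vehicle, close to Dio3 in every library. Cox11, a factor for assembly of cytochrome c oxidase, had 4.44 and 4.2 FPKM in R and 1.51 and 1.17 FPKM in vehicle.

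Over all 12176 tested genes limma called 42 higher in R, 0.345%, and 167 lower, 1.37%, after Benjamini-Hochberg adjustment. Higher genes were 20.1% of calls on the deposited scale, 31% on the TPM scale, which moved the median of all genes to 0.13, and 6.59% on the scale of the stromal markers, which moved it to -0.18. Of 15 tested macrophage and monocyte markers, limma called 3 lower, Fcgr1, Ctss and Itgam, the largest shift among the lists. The antibody receptor Fcgr1 had 11.5 and 8.58 FPKM in R and 40.6 and 39.4 FPKM in vehicle (limma, adjusted p = 0.00728). The lysosomal protease Ctss and the integrin Itgam had log2 fold changes of -1.3 and -0.9, with limma's adjusted p = 0.0331 and adjusted p = 0.0346, and each was called in 8 of the 12 alternatives without a block, with adjusted p up to 0.212 and 0.191. Of 13 tested stromal markers limma called 0, and voom called 0. An unadjusted p under 0.05 in limma was found for 3, against 16% of all tested genes. Pdgfrb, a receptor of stromal cells, had 60.3 and 68.9 FPKM in R and 40.4 and 44.2 FPKM in vehicle (limma, adjusted p = 0.112), and Col1a1, a chain of type I collagen, 852 and 795 FPKM in R and 532 and 526 FPKM in vehicle (limma, adjusted p = 0.156). Of 2 tested endothelial markers limma and voom called 0, with 0 at an unadjusted p under 0.05. Pecam1 and Cdh5, adhesion molecules of endothelium, had log2 fold changes of -0.12 (limma, adjusted p = 0.764) and 0.03 (limma, adjusted p = 0.968).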

How the data were processed

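RNA sequencing of 4 libraries, 2 R and 2 vehicle, was analysed from the deposited table, which holds FPKM per gene and library, per the file headers; its 10 empty columns were not used. The builds GRCm38 and mm10 and edgeR 3.18.1, in a role not stated, are named per the submitters' processing notes. For aligner, counting tool, strand setting and filters, the sources used here give nothing. GENCODE M21 matched 54495 of 54532 gene identifiers and gave symbols, coordinates and union exon lengths.

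FPKM times exon length gave whole reads, within 0.02, for 96.3 to 96.4% of values above 0. Genes whole in all 4 libraries, 24113, gave the recovered reads. The library sizes that the FPKM values imply, over the recovered reads, stood at a relative 1.004, 1.029, 0.981 and 0.986 in R replicates 1 and 2 and vehicle replicates 1 and 2. Genes not whole in all 4 are missing from these reads, so a further scaling by the authors is not shown. For a gene 2 kb long, 1 FPKM was worth 35.3 to 38.6 reads.

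The 12176 genes whose mean reached 1 FPKM were tested as log2(FPKM + 1), which understates changes of low genes, in limma 3.58.1 under R 4.3.3 (variance trend, Benjamini-Hochberg, adjusted p under 0.05), with residual degrees of freedom of 2 and prior degrees of freedom of 3.83. Intervals are 95% and exact, or Wilson for shares (scipy 1.17.1). On simulated libraries of 11452 genes with 200 changed genes limma called 208, of them 22 falsely, and voom 188, of them 3 falsely. The false share of limma was thus above its threshold of 0.05. The simulated libraries were independent, with the same dispersion for all genes and log2 changes of 1 to 4 in size. Smaller changes and libraries that deviate together were not simulated, so these rates may not hold for the real libraries.

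The members and lists were chosen with earlier results of these data known. Named genes are the members, genes inside the stretch, and called genes, or the 2 with the smallest p, per list; others are said to be chosen after their values were seen. A gene that the rule names in the thyroid hormone list is not reported here. Alternatives changed the pseudocount, the filter, the scale, the tool, a replicate block and the libraries. Groups followed the sample titles.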

Additional observations from a re-analysis of the deposited data

How the results depend on the processing

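The log2 fold change of Dio3 ran from 1.03 to 1.43 under the 13 alternatives, and from 1.04 to 1.40 when a library was left out. Dio3 was chosen on this contrast and the alternatives reuse the same libraries, so they describe its size and do not test its direction. The log2 fold change of Rian, 0.03 as reported, was -0.01 when libraries were scaled to the stromal markers, an alternative added after the data were seen. The members under the filter depended on the scale. On the log2 scale of recovered reads Dlk1 went from 0.18 to 2.74 and Mirg from 0.05 to 1.51. On it Meg3 went from 0.13 to 0.59 and Rian to 0.15, against 1.35 for Dio3. Dio3os, not a member, went from 0.65 to 1.03 on that scale. Dlk1 was thus above Dio3 there, from few reads and without a test. The genes called higher and lower in R, 42 and 167, numbered 0 and 0 without a filter on low values (2767 at an unadjusted p under 0.05 in limma), 83 and 235 in voom, and 11 and 156 on the scale of the stromal markers. Of the R libraries, leaving out replicate 1 gave 331 higher and 698 lower, and leaving out replicate 2 gave 447 higher and 425 lower. Of the vehicle libraries, the same gave 100 higher and 183 lower for replicate 1, then 152 higher and 250 lower for replicate 2. The 109 tested genes of the 8 pathway lists had 0 calls as reported, 2 in voom, 1 on the scale of the stromal markers and 1 to 12 when a library was left out. The flanks had 0 calls as reported and 0 to 2 when a library was left out. With 1 library left in a group, it is assumed to vary like the others. The cause of these shifts was not tested. The titles number the replicates of both groups, but nothing says that equal numbers share an origin, and deviations of same-numbered libraries correlated at 0.353 over tested genes. With the replicate number as a block the calls were 891 higher and 1009 lower, 19 in the pathway lists and 3 in the flanks, and Dio3os passed (limma, adjusted p = 0.00224). Depth limits Dlk1, Mirg and Rtl1, with at most 24 reads in any library.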

Other observations

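Dppa3, which protects imprints in the early embryo, went the other way from Dio3. It had 0.174 and 0.31 FPKM in R and 1.21 and 1.44 FPKM in vehicle, was below the filter at a mean of 1 FPKM and was not tested. Hey1, a repressor induced by Notch, had 0.413 and 0.508 FPKM in R and 0.0695 and 0.171 FPKM in vehicle. Hr, a corepressor regulated by thyroid hormone, had 0.427 and 0.407 FPKM in R and 0.172 and 0.153 FPKM in vehicle. The groups did not overlap for any of the 3 genes, which were chosen after their values were seen. Such separation was common: of the 24958 genes above 0 in at least 1 library, R lay wholly above vehicle in 4568 and wholly below in 4971.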
